A study of Mus musculus with 6 samples.

Results

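The genes described here are 7 markers of the granulocytes of allergy and parasite defence, namely Prg2, Ms4a2, Prss34, Cpa3, Mcpt8, Fcer1a and Epx. They were chosen by symbol among the 32285 genes of the count matrices, each symbol occurring once. They were followed through normal Lin- cKit+ Sca1+ (LSK) bone marrow cells, the compartment of hematopoietic stem and progenitor cells (HSPCs), from healthy and leukemic mice. The host mice were C57BL/6J animals carrying CD45.1, aged 8 to 12 weeks. The PBS group received vehicle and the AML group received 1000000 cells of C1498, a murine acute myeloid leukemia line that carries CD45.2. Bone marrow was taken at day 21, lineage-depleted and sorted, and each group holds 3 droplet libraries. The deposited cell table annotates 16822 cells of 5 libraries, 3 PBS (6838, 934 and 4398 cells) and 2 AML (693 cells of replicate 1 and 3959 of replicate 3). AML replicate 2 has no cell in it and is described only from its barcodes. The table gives each cell to 1 of 4 classes, which are HSC and the multipotent progenitors (MPP) numbered MPP-2 to MPP-4, and to 1 of 9 clusters numbered 0 to 8.

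Basophils, mast cells and eosinophils are rare myeloid cells that store preformed proteins in granules and release them on stimulation. Basophils and mast cells carry the high-affinity receptor for IgE, whose alpha chain (Fcer1a) binds the antibody and whose beta chain (Ms4a2) amplifies the signal through the shared gamma chain (Fcer1g). Their granules hold serine proteases and carboxypeptidases. Mcpt8 and Prss34 encode the basophil proteases mMCP-8 and mMCP-11, and Cpa3 encodes mast cell carboxypeptidase A, which is also made early in the lineage. Eosinophil granules hold major basic protein (Prg2) and eosinophil peroxidase (Epx). The transcription factor Gata2 acts in the basophil and mast cell lineages, and its family binds DNA at the letters GATA.

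The upstream sequence of the members is shown because 5 of them turned out to share a small set of cells. RefSeq promoters of build GRCm38.p6 were found for 6 of the 7 members, the exception being Prg2. Each line gives the 250 bases before the RefSeq transcription start, 5′ to 3′ on the strand of the gene. The Mcpt8 line is cut to 174 bases, because the GENCODE start lies upstream of the RefSeq start by 76 bases. Capitals mark GATAA or its reverse complement TTATC, the only motif searched.
Ms4a2: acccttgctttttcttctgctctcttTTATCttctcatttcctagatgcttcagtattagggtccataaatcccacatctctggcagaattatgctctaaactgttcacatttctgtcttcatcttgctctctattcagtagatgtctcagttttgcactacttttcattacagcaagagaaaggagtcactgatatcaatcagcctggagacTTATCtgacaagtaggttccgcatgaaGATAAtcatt
Prss34: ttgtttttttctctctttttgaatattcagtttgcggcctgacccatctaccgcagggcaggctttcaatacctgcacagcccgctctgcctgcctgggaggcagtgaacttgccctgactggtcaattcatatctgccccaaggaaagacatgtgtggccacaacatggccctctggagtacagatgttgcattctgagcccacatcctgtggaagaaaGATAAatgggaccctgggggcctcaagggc
Cpa3: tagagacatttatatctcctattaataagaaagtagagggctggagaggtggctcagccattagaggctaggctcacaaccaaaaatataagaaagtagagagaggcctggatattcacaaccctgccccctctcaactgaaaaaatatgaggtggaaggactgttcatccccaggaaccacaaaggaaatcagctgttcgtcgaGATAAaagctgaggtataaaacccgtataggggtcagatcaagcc
Fcer1a: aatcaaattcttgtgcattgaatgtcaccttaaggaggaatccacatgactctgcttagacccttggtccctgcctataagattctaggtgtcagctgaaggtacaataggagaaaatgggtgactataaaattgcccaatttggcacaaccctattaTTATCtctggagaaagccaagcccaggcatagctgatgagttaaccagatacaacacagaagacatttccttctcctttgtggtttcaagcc
Mcpt8: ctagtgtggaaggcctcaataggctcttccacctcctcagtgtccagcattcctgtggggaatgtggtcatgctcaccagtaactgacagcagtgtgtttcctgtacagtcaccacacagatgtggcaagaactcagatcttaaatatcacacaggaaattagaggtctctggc
Epx: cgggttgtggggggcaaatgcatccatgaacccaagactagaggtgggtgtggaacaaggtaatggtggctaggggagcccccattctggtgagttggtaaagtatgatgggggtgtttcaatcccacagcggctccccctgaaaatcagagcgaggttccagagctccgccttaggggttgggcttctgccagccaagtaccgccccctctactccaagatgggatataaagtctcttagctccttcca
These windows are chr19:11623720-11623969 (minus strand) for Ms4a2, chr17:25298144-25298393 (plus) for Prss34 and chr3:20242182-20242431 (minus) for Cpa3. They are chr1:173227230-173227479 (minus) for Fcer1a, chr14:56085274-56085447 (minus) for Mcpt8 and chr11:87875537-87875786 (minus) for Epx. Ms4a2 held 3 matches, from 224 to 10 bases before the start. Prss34, Cpa3 and Fcer1a held 1 match each, beginning 30, 45 and 92 bases before the start. Mcpt8 and Epx held 0 in these windows. Of 27025 RefSeq promoters, 23.0% held a match in 250 bases and 18.0% in a window of 174 bases. A match is a match of letters, and binding was not measured here.

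The genes themselves lie on separate chromosomes (GENCODE vM21, GRCm38). Prg2 (chr2:84980461-84983632) lies 4.58 kb from its paralog Prg3, and Ms4a2 (chr19:11615523-11623719) lies 5.78 kb from Ms4a3. Mcpt8 (chr14:56082166-56085273) is 14.6 kb from Ctsg, the neutrophil protease cathepsin G. Epx (chr11:87864000-87875536) is 59.6 kb from Mpo, its neutrophil counterpart. Fcer1a spans chr1:173221284-173227214, Cpa3 chr3:20215620-20242181 and Prss34 chr17:25298394-25300165. The annotation places no other gene over them except the microRNA genes Mir7007 in Cpa3 and Mir6949 in Mcpt8.

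All 7 members were detected in LSK cells, each in few of them. Of 16822 cells, 1174 (6.98%) held a unique molecular identifier (UMI, 1 counted transcript) of at least 1 member. Cpa3 was found in 595 cells, Mcpt8 in 329, Prg2 in 251, Ms4a2 in 55, Fcer1a in 36, Prss34 in 29 and Epx in 2. How the transcripts were spread over those cells differed. Cpa3 gave 1030 UMIs, and 73.4% of its positive cells held 1 UMI. Prss34 gave 1157 UMIs in its 29 cells, and the 10 richest cells held 91.8% of them. Mcpt8 combined both patterns, since 81.5% of its 329 cells held 1 UMI while its 10 richest cells held 56.7% of its 1045 UMIs.

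The deposited clusters separated the members into 3 places. Cluster 4, with 826 cells, held 98.9% of the Prss34 UMIs, 85.1% of Ms4a2, 83.2% of Fcer1a, 73.9% of Mcpt8 and all 5 Epx UMIs. Prg2 lay elsewhere, with 85.4% of its 3082 UMIs in the 177 cells of cluster 6. Cpa3 was spread out, with 35.7% of its UMIs in cluster 4, 27.9% in cluster 0, 15.7% in cluster 1 and 11.5% in cluster 3.

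**Figure D1:**
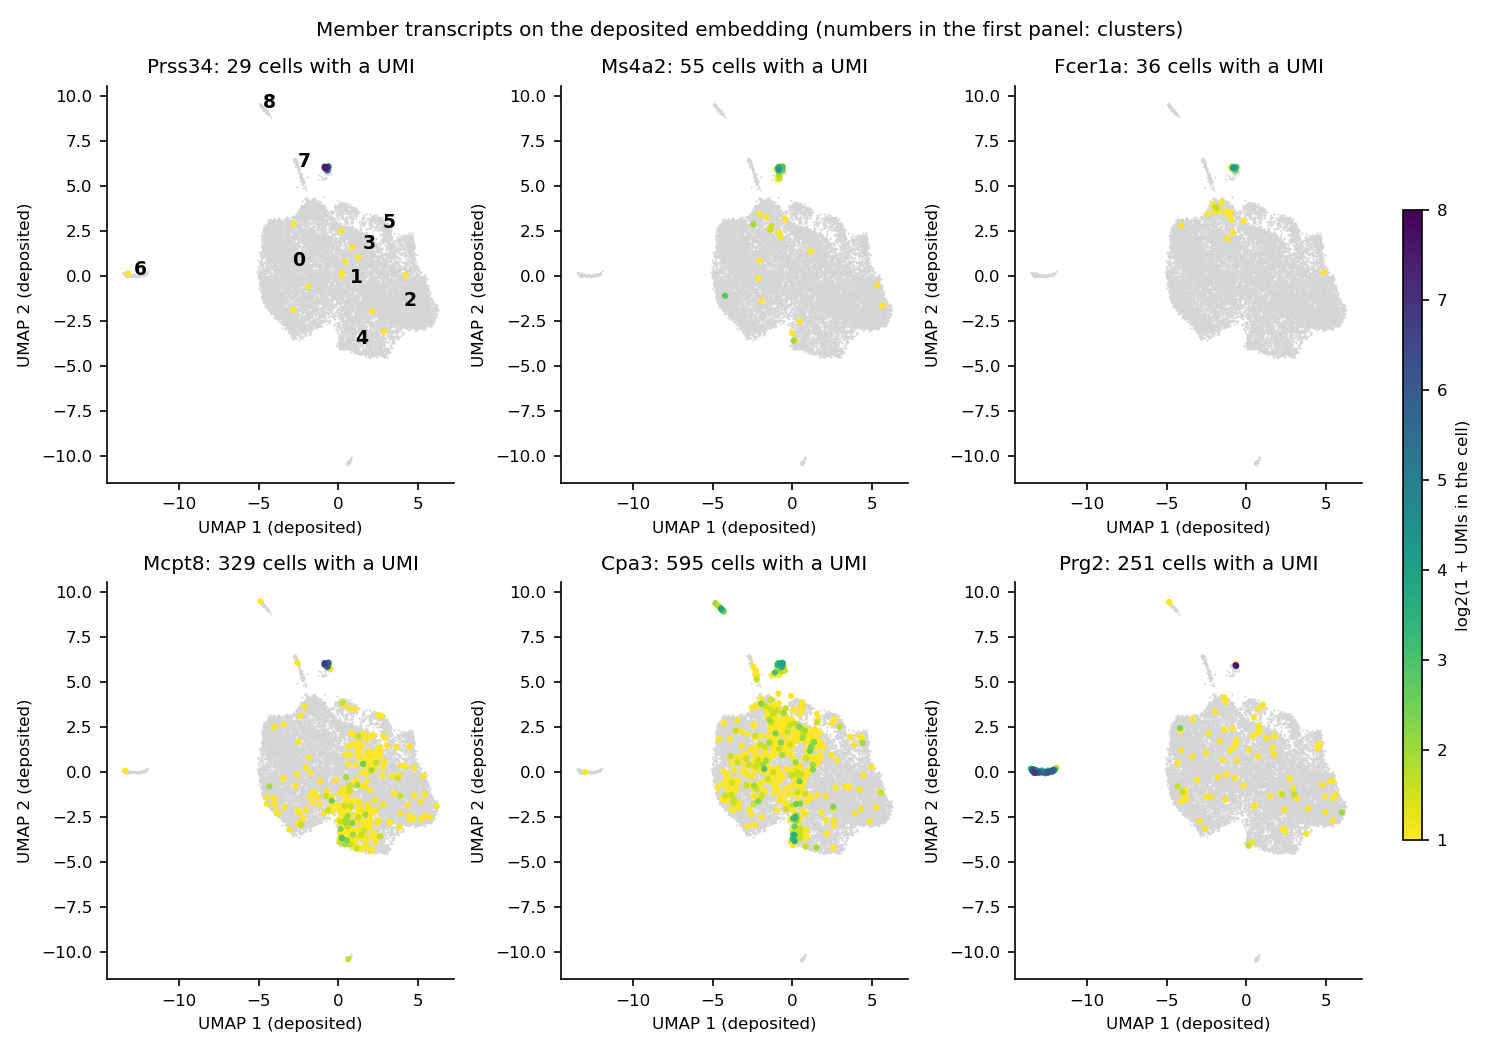
Cells of the deposited table on the authors' UMAP coordinates (both axes without unit), with cells holding a UMI of the named gene colored by log2(1 + UMIs) and all other cells grey. Prss34, Ms4a2, Fcer1a and the rich Mcpt8 cells share a small patch near the top of cluster 4, Prg2 fills cluster 6 at the left, and Cpa3 is scattered over the main body, cluster 8 and the patch.

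By class, the members were mostly in MPP-3, the myeloid-biased progenitors. MPP-3 made up 2369 of the 16822 cells and held 97.5% of the Prg2 UMIs, 83.5% of Prss34, 76.2% of Ms4a2, 75.7% of Fcer1a and 70.4% of Mcpt8. Cpa3 was the exception, with 45.4% in MPP-2 and 41.3% in MPP-3. The HSC class held between 0 and 5.44% of the UMIs of each member. Fcer1a was found in 1 HSC and in 0 MPP-4 cells.

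The cells with 3 or more members all lay in a separate patch of cluster 4. On the deposited embedding, 107 of the 826 cells lay above 5 on the second UMAP axis, separated from the rest of cluster 4 by a gap from 3.90 to 5.36, a border chosen after it was seen. This patch held all 25 cells of the table with UMIs of 3 or more members and 37 of the 47 cells of cluster 4 with 2 or more. The other 70 cells of the patch held 1 member or none, among them all 9 from AML replicate 1. In it, Prss34 was at 2004 counts per 1000000 UMIs (CPM), Mcpt8 at 1186 CPM, Cpa3 at 447 CPM, Ms4a2 at 242 CPM and Fcer1a at 156 CPM. In the other 719 cells of cluster 4, Mcpt8 was at 14.0 CPM (95 UMIs in 65 cells) and Cpa3 at 16.6 CPM (113 UMIs in 46 cells). The patch held 69 MPP-3 and 29 MPP-2 cells. It made up 0.673%, 0.214% and 0.387% of the cells in PBS replicates 1, 2 and 3, and 1.30% and 0.834% in AML replicates 1 and 3.

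Related genes differed between the patch and the rest of cluster 4, as a description since clusters and embedding were built from the same genes. Hdc, which makes histamine, was at 459 CPM in the patch and 22.5 CPM in the rest. Gata2 was at 138 CPM against 4.12 CPM, and Lmo4 at 638 CPM against 92.4 CPM. Srgn, the proteoglycan core of granules, was at 2240 CPM against 791 CPM. Of 11 neutrophil genes 5 were lower in the patch and 6 higher. Elane was at 154 CPM in the patch and 1176 CPM in the rest, Prtn3 at 1328 and 3668 CPM, and Ctsg at 627 and 611 CPM. Of the genes that define the sort gate, Kit was at 82.3 CPM and Ly6a (Sca1) at 54.3 CPM in the patch, against 38.6 CPM and 86.7 CPM in the rest.

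Co-expression in single cells was concentrated in that patch. Of the 16822 cells, 1106 held 1 member, 43 held 2, 7 held 3, 6 held 4 and 12 held 5. The 25 cells with 3 or more held 98.9% of all Prss34 UMIs, 82.2% of Fcer1a, 63.7% of Mcpt8 and 54.2% of Ms4a2, but 14.1% of Cpa3 and 11.1% of Prg2. They came from 4 libraries, 8 cells from PBS replicate 1, 2 from PBS replicate 2, 10 from PBS replicate 3 and 5 from AML replicate 3. Their median total was 4626 UMIs (range 2081 to 20129), against 4575 UMIs over all cells and 8507 UMIs in the other cells of cluster 4. No doublet caller was run.

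Pairs of members were counted against the number expected if detection were independent within each library. The IgE receptor chains Ms4a2 and Fcer1a were together in 18 cells, where 0.125 were expected. Prss34 and Fcer1a were together in 12 cells, with 0.0626 expected, and Prss34 and Mcpt8 in 15 cells, with 0.590 expected. Each of these pairs was found together in 4 libraries. Cpa3 and Mcpt8, the most widely detected members, were together in 41 cells, with 11.8 expected, and 32 of those cells were in cluster 4. Within cluster 4 alone the excess was smaller, with 17 cells against 1.35 expected for Ms4a2 and Fcer1a, 12 against 0.645 for Prss34 and Fcer1a, 15 against 2.10 for Prss34 and Mcpt8, and 32 against 13.9 for Cpa3 and Mcpt8. Over all cells Prg2 showed no such excess with Cpa3 or Mcpt8. It was together with Cpa3 in 5 cells, where 9.17 were expected, and with Mcpt8 in 5 cells, where 5.39 were expected. With Ms4a2 it shared 3 cells (0.825 expected), with Prss34 2 (0.453), with Fcer1a 1 (0.543) and with Epx 2 (0.0328). Prss34 and Epx shared 0 cells. Cells of 1 library share its depth and background, so these counts describe the cells and carry no test.

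The 25 cells fell into 3 kinds, divided after their values were seen. In 14 cells Prss34 was at 6 to 179 UMIs (median 65). Mcpt8 was found in 13 of these 14 cells (median 46.5 UMIs), Cpa3 in 14 (median 7.5), Ms4a2 in 13 (median 3.5) and Fcer1a in 11 (median 5). Hdc was found in all 14 (median 12.5 UMIs) and Fcer1g in all 14 (median 13). Cd200r3, an activating receptor of basophils and mast cells, was found in 10 of them and in 0 of the other 11. The cytokine Il6 was found in 7 and Il4 in 3. These 14 cells came from PBS replicates 1 (1 cell), 2 (2 cells) and 3 (8 cells) and from AML replicate 3 (3 cells).

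A second kind of 9 cells had at most 2 UMIs of Prss34 and none of Epx. Ms4a2 was found in 8 of the 9 (median 3 UMIs), Cpa3 in 8 (median 3), Fcer1a in 7 (median 1) and Mcpt8 in 6 (median 1). In 3 of these cells Gzmb, a granule protease, was at 9, 9 and 25 UMIs, and 2 of those 3 also held Cma1, a mast cell chymase. Hdc was at 0 in the same 3 cells. The last kind was a pair of cells, 1 from PBS replicate 1 and 1 from AML replicate 3, which were the only cells with Epx. They held 194 and 148 UMIs of Prg2 and 3 and 2 UMIs of Epx. They also held 13 and 5 UMIs of Prg3, the paralog of major basic protein, and 5 UMIs of Cebpe, a factor of granulocyte maturation, were in the first. Prss34 and Cpa3 were at 0 in both, and Ms4a2 was at 1 UMI in each.

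**Figure D2:**
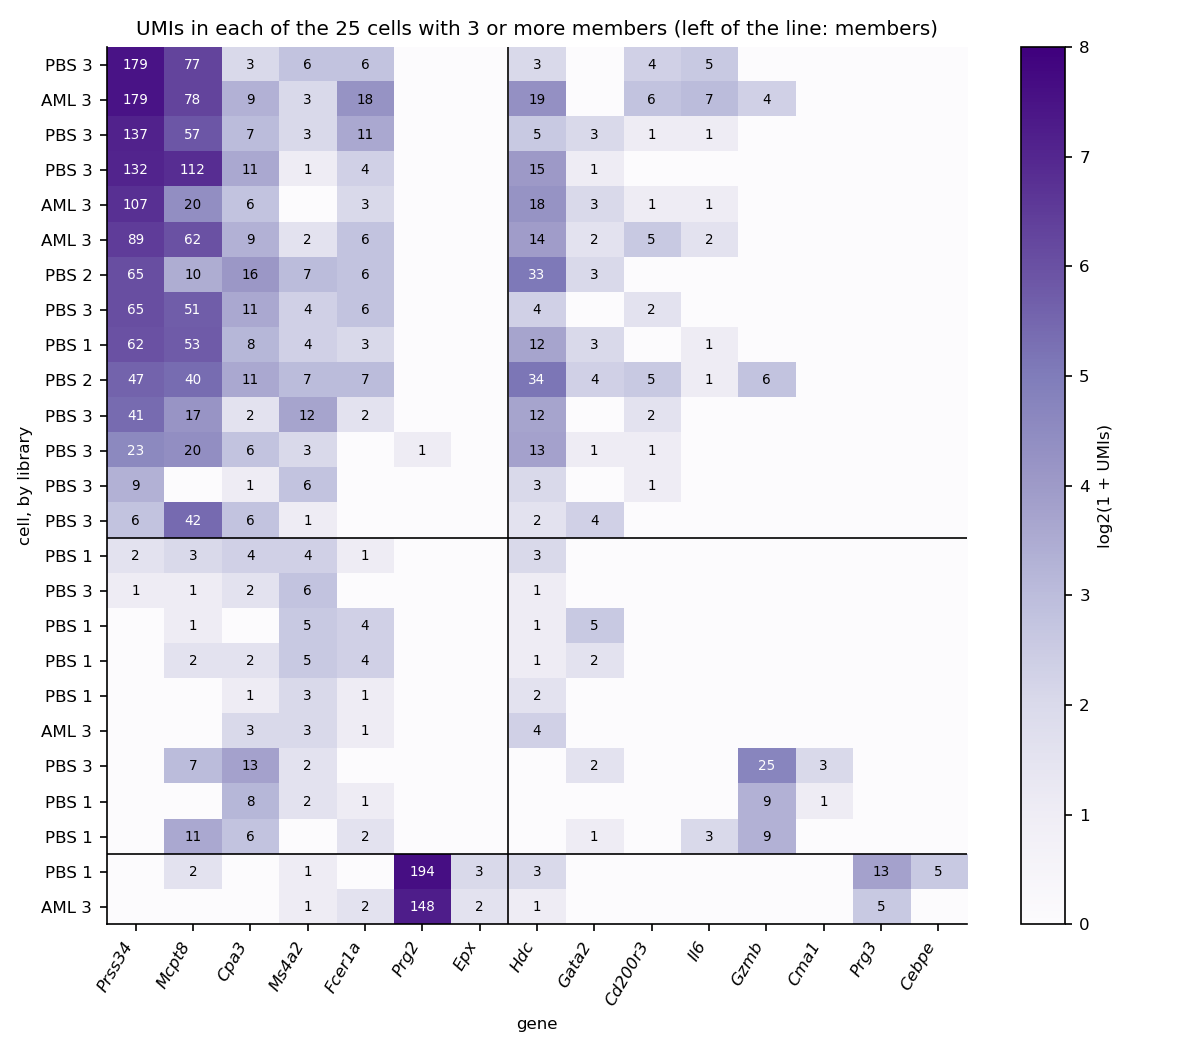
UMIs of each gene (columns) in the 25 cells with 3 or more members (rows, named by library), with the number printed where it is above 0 and color as log2(1 + UMIs). The 14 cells at the top hold Prss34 and Hdc, 13 of them with Mcpt8, the 9 cells below hold little or no Prss34, 8 of them with Ms4a2, 8 with Cpa3 and 7 with Fcer1a, and the 2 cells at the bottom hold Prg2, Epx and Prg3.

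The genes outside the list whose pattern was most like it were found by comparing CPM between the 68 cells with 2 or more members and the cells with none, library by library. Of the 68 cells 22, 5 and 18 came from PBS replicates 1, 2 and 3, 1 from AML replicate 1 and 22 from AML replicate 3, so the order of the genes is only a rough one. The 10 with the largest median ratio were Gzmb, Rnase12 (108 times), Csrp3 (95.7), Hdc (67.7), Ctsg (10.2), Atp6v0a1 (6.95), Ms4a3 (6.81), Tent5a (6.23), Ltb4r1 (6.04) and Ap3s1 (5.55). Ratios were taken in 5 libraries, or in 3 for Gzmb. Gzmb had 66 UMIs in these cells and 4 in the cells with no member, too few to give its ratio a size. Ctsg and Ms4a3 are neighbours of the members Mcpt8 and Ms4a2 in the genome.

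Prg2 was found in a second setting, cluster 6. In this cluster the immunoglobulin light chain gene Igkc took 47.0% of all UMIs and Jchain, which joins secreted antibody, was at 43656 CPM. Prg2 was detected in 165 of its 177 cells (93.2%). By library it was at 2018, 921 and 1345 CPM in PBS replicates 1, 2 and 3 and at 1215 and 1173 CPM in AML replicates 1 and 3. In AML replicate 1 this came from 46 UMIs in 3 of 9 cells, with a median of 0, while in the other libraries 91.2% to 100% of the cells held Prg2. Over all libraries the median was 10 UMIs a cell and the highest cell held 111. All other members together gave 3 UMIs in this cluster. Ms4a2, Fcer1a and Epx were in 0 of 177 cells, which allows up to 1.69% of cells with a detected UMI and does not limit the share of cells that express them. Il5ra, a chain of the interleukin-5 receptor, was at 84.7 CPM there and detected in 87 cells. Outside clusters 4 and 6, Prg2 was in 80 of 15819 cells (0.506%), 72 of them with 1 UMI. Igkc was found in those clusters too, at 129 CPM in the cluster 0 cells without Cpa3, and the part of free RNA in the Prg2 found there was not tested.

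Cpa3 was the member most widely shared by progenitors. Its level in cluster 0 was 9.70, 14.6 and 6.80 CPM in PBS, and the AML replicates had 11.8 and 10.8 CPM. The groups overlapped, and the spread among PBS libraries exceeded the difference. Cluster 6, which should lack the gene, had Cpa3 in 1 of 177 cells at a median of 8667 UMIs a cell, so the 220 of 6367 cells in cluster 0 were above that share. Cells of cluster 0 with Cpa3 had Gata2 at 55.0 CPM and Itga2b at 31.5 CPM, against 38.8 and 21.1 CPM in those without. Procr, a stem cell marker, was at 7.38 CPM against 24.3 CPM. In cluster 8, which holds T and NK cell transcripts such as Trbc2, Cpa3 was in 16 of 113 cells with 61 UMIs, up to 14 in a cell. The other members gave 3 cells in cluster 8, 2 with Prg2 and 1 with Mcpt8. The Cpa3 cells of cluster 8 had Trbc2 at 395 CPM, against 336 CPM in the others of the cluster.

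**Figure D3:**
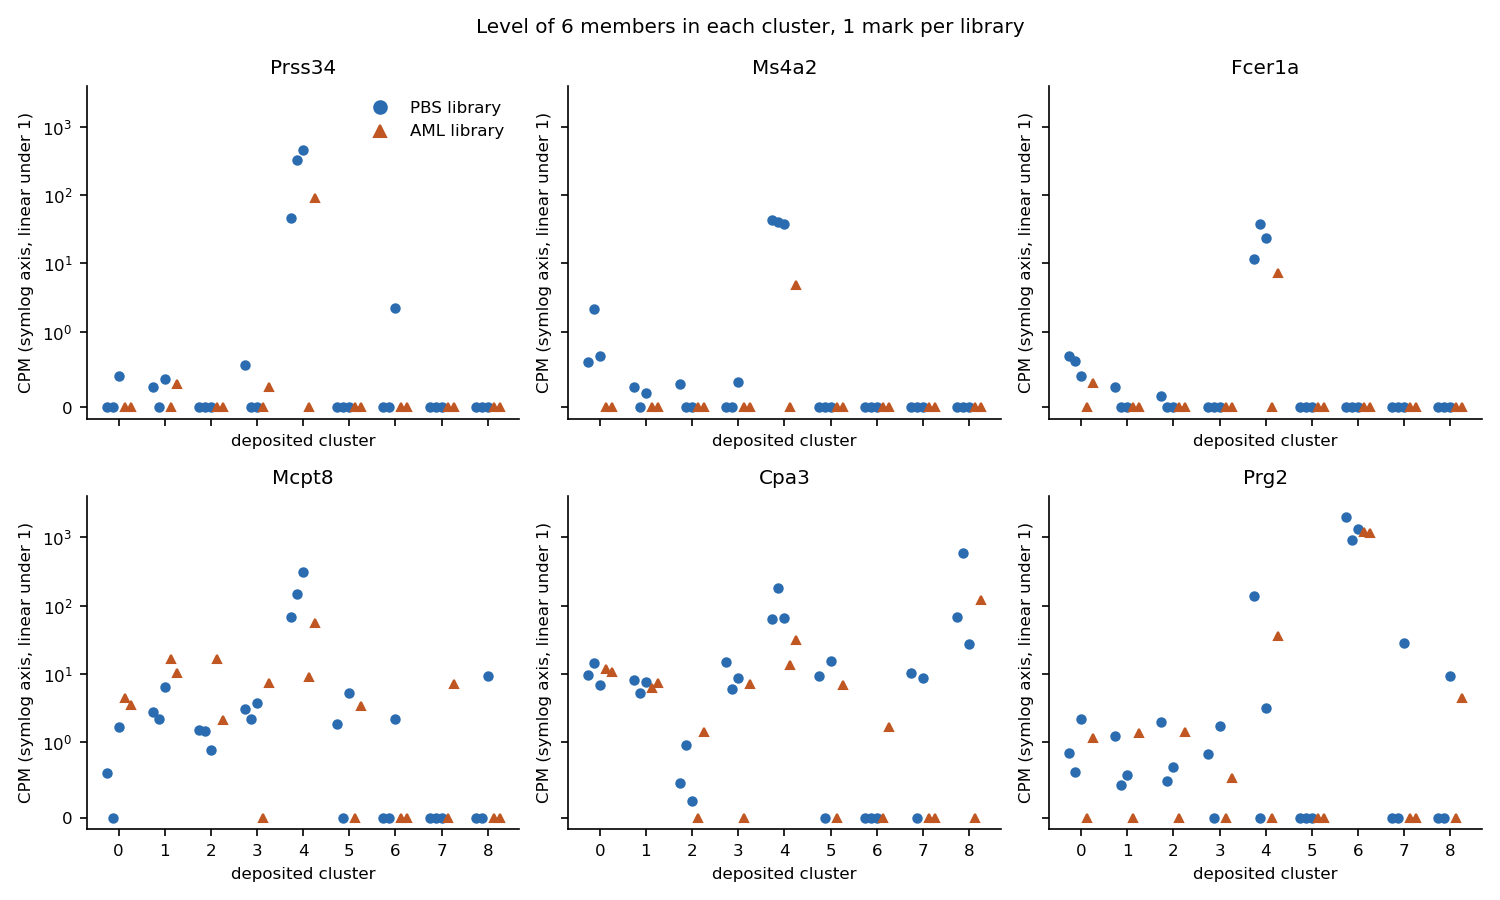
Level of 6 members in CPM (vertical axis, symmetric log, linear under 1) in each deposited cluster (horizontal axis), with 1 mark for each PBS library (circles) and AML library (triangles). Prss34, Ms4a2 and Fcer1a peak in cluster 4, Prg2 in cluster 6, and Cpa3 in clusters 4 and 8 in most libraries. Mcpt8 is higher in both AML libraries than in every PBS library in clusters 0, 1 and 2.

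The comparison of AML with PBS asked whether leukemia changed these genes in the normal HSPCs. Over all LSK cells, none of the 6 members that passed the filter on low counts was called (edgeR quasi-likelihood test, Benjamini-Hochberg over 14364 genes). The same fit called 0.16% of the genes tested. At an unadjusted p under 0.05 it held 1 member, Ms4a2, and 10.5% of all genes. DESeq2 called 0 members. Epx did not pass the filter, having 5 UMIs.

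Prg2 was at 39.7, 21.2 and 28.7 CPM in PBS replicates 1, 2 and 3 and at 23.6 and 32.2 CPM in AML replicates 1 and 3, the order used from here on. The groups overlapped (log2 fold change -0.08 ± 0.257 (SE), adjusted p = 0.928 by edgeR). Cpa3 was at 10.4, 15.1 and 9.46 CPM in PBS and 7.20 and 11.2 CPM in AML, again with overlap (-0.24 ± 0.280, adjusted p = 0.766 by edgeR). Mcpt8 was at 4.42, 6.06 and 20.4 CPM in PBS and 9.25 and 12.97 CPM in AML. Here PBS replicate 3 lay above both AML libraries and the other PBS libraries lay below them (0.09 ± 0.531, adjusted p = 0.965 by edgeR). The value was 1.41 with each cell counted once (adjusted p = 0.113 by edgeR) and 1.21 without PBS replicate 3 (adjusted p = 0.253 by edgeR).

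Prss34 was at 2.12, 10.8 and 26.3 CPM in PBS and at 0 and 13.7 CPM in AML, so the groups overlapped (-0.56 ± 0.796, adjusted p = 0.815 by edgeR). Fcer1a was at 0.841, 1.44 and 1.45 CPM in PBS and at 0 and 1.16 CPM in AML. The Ms4a2 groups alone did not overlap, at 2.21, 2.02 and 2.46 CPM in PBS against 0 and 0.725 CPM in AML. Its log2 fold change was -1.87 ± 0.530 (SE, edgeR adjusted p = 0.227), and its unadjusted p was 0.0033 by edgeR. The value was -1.04 over all barcodes of the 6 libraries and -1.16 with each cell counted once, and it was -1.66 to -8.27 with libraries left out, the last with AML replicate 1 alone, which holds 0 Ms4a2, so that this value depends on the prior count of the fit. Ranges of the groups did not overlap for 29.7% of all genes tested, so 1 of 6 members is no larger a share. The zeros of Ms4a2, Prss34 and Fcer1a all came from AML replicate 1, whose 693 kept cells hold 1945659 UMIs. A count of 0 in 693 cells allows a share of cells with a detected UMI of up to 0.433%. It sets no limit on cells that express the gene, at a median of 2393 UMIs a cell.

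The related genes gave no calls over all LSK cells. Among 12 other receptors 10 were tested and 0 called, among 14 granule proteins 3 and 0, and among 21 enzymes, cytokines and transcription factors 18 and 0. Their median log2 fold changes were 0.39, -0.99 and -0.03, where the median of all genes was -0.03. The receptor chain Fcer1g was at a mean of 125 CPM in PBS and 201 CPM in AML (adjusted p = 0.399 by edgeR). Kit was at 83.7 and 92.04 CPM, and the interleukin-3 receptor chain Il3ra at 27.7 and 28.2 CPM. Srgn was at 1240 CPM in PBS and 781 CPM in AML (adjusted p = 0.435 by edgeR), Gzmb at 1.03 and 0.109 CPM, and Ear2 at 0.477 and 0.127 CPM. Alox5ap was at 401 and 329 CPM, Runx1 at 203 and 322 CPM and Spi1 at 147 and 117 CPM. Of the 10 genes most like the members, Ctsg alone was called, rising from 55.7 to 166 CPM (log2 fold change 1.54, adjusted p = 0.0250 by edgeR). The fitted fold change was above 0 for 5 of these 10 genes, Ctsg included.

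Within classes, 0 members were called in any of the 4 fits by edgeR, where the filter left 1 member to test in HSC, 6 in MPP-3 and 3 each in MPP-2 and MPP-4. These fits called 0.178% of all genes in HSC, 0.0486% in MPP-3, 0.0399% in MPP-2 and 0.0325% in MPP-4. At an unadjusted p under 0.05 they held 0, 5, 2 and 1 members in that order, and 4.16%, 7.39%, 7.56% and 5.93% of all genes. In MPP-3 the fitted fold change of all 6 tested members was below 0, as it was for 51.4% of all genes tested. Above 0 in this fit were 0 of 6 tested B cell genes, 0 of 3 erythroid, 0 of 4 megakaryocyte and 1 of 7 stem and progenitor gate genes. Of neutrophil genes 3 of 6 were above 0, of monocyte and macrophage genes 4 of 6, and of T and NK genes 2 of 3. Ms4a2 passed the filter in MPP-3 through its PBS libraries. Ms4a2 there was at 12.3, 34.0 and 14.5 CPM in PBS and 0 and 2.51 CPM in AML (-3.10, adjusted p = 0.0754 by edgeR). Prg2 was at 306, 369 and 233 CPM in PBS and 74.7 and 116 CPM in AML (-1.85, adjusted p = 0.0754 by edgeR). Both had groups that did not overlap, which held for 22.1% of the genes tested in this class.

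What MPP-3 contained differed between the libraries. Cells of cluster 6 made up 6.66%, 29.3% and 9.48% of MPP-3 in PBS, and 3.51% and 6.69% of it in AML. Cells of cluster 4 made up 13.9%, 24.4% and 21.3% of MPP-3 in PBS, and 25.9% and 33.3% in AML. MPP-3 itself was 11.6%, 4.39% and 9.60% of the cells in PBS and 32.9% and 22.3% in AML, and the part of these shifts in the member values was not tested. Without cluster 6 the Prg2 value in MPP-3 was -0.59 (adjusted p = 0.904 by edgeR), a value in which the pair of Epx cells weighs heavily, with 194 Prg2 UMIs in PBS replicate 1 and 148 in AML replicate 3. Without cluster 6 Ms4a2 was called at -3.13 (adjusted p = 0.0484 by edgeR). Without the filter on low counts 5 members were called lower in MPP-3, and DESeq2 called 1, Prg2. Without PBS replicate 1 edgeR called 4 members in MPP-3 (Ms4a2, Prg2, Mcpt8 and Prss34), without PBS replicate 2 it called Ms4a2, and without PBS replicate 3 it called Ms4a2 and Prg2. A test of whether the AML effect differed between the 4 classes called 0 of 6 members and 0.872% of 12734 genes, with Mcpt8 at an adjusted p of 0.209 by edgeR.

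The fit within cluster 4, added after its place in the pattern was known, called 4 of 6 tested members lower in AML, against 0.29% of 8615 genes called lower. Ms4a2 and Fcer1a passed the filter on low counts through the PBS libraries, where they were higher. The filter thus favoured a lower AML value for them, and the count of 4 is not support for a fall of the set. Ms4a2 was at 43.2, 41.0 and 38.0 CPM in PBS and 0 and 4.86 CPM in AML (log2 fold change -3.19 ± 0.448 (SE), adjusted p = 1.29e-05 by edgeR). Its PBS values lay far above both AML libraries, but that of PBS replicate 2 rests on 14 UMIs in 2 of its 23 cells of cluster 4. In the same 23 cells Mcpt8 was found in 3 and Prss34 in 2. Mcpt8 was at 67.0, 149 and 309 CPM in PBS and 8.83 and 55.1 CPM in AML (-2.13 ± 0.439, adjusted p = 0.00645 by edgeR). Cpa3 was at 63.4, 182 and 66.7 CPM in PBS and 13.2 and 31.3 CPM in AML (-1.84 ± 0.409, adjusted p = 0.0137 by edgeR). Neither gene overlapped between the groups.

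Prss34 was at 46.1, 328 and 460 CPM in PBS and 0 and 91.1 CPM in AML, where the groups overlapped (-2.23 ± 0.513, adjusted p = 0.0181 by edgeR). Fcer1a was at 11.5, 38.1 and 23.3 CPM in PBS and 0 and 7.28 CPM in AML, and the test was not passed (-1.72, adjusted p = 0.136 by edgeR). Prg2 in cluster 4 came mostly from the pair of Epx cells and did not pass (-0.91, adjusted p = 1.00 by edgeR). In total 4 of the 6 members had groups that did not overlap, against 18.8% of the genes tested in cluster 4. Among these 4 were Ms4a2 and Fcer1a, which passed the filter through the PBS libraries.

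The calls changed with the libraries and the tool. Without PBS replicate 3, 3 members were no longer called by edgeR, namely Mcpt8 (log2 fold change -1.27, adjusted p = 0.523), Prss34 (-1.52, adjusted p = 0.694) and Cpa3 (-2.07, adjusted p = 0.0601). Without PBS replicate 2 Cpa3 was at -1.26 (adjusted p = 0.133 by edgeR). Fcer1a was called without PBS replicate 1 (adjusted p = 0.0242), and Prg2 without AML replicate 3 (0.0337), both by edgeR. The latter set PBS against AML replicate 1 alone, which holds 0 Prg2 UMIs in 77 cells of cluster 4, and 194 of the 195 Prg2 UMIs of PBS replicate 1 there were in 1 cell. DESeq2 called Ms4a2 (-3.33, adjusted p = 0.00674) and no other member, with Mcpt8 at -2.48, Cpa3 at -2.15 and Prss34 at -2.69. With each cell counted once per gene, 0 members were called by edgeR, with Ms4a2 at -2.15, Cpa3 at -1.11 (adjusted p = 0.247 for both) and Mcpt8 at -0.42 (adjusted p = 0.999). Cells with a Ms4a2 UMI were 7.11%, 8.70% and 9.33% of cluster 4 in PBS and 0 and 2.37% in AML. Cells with a Mcpt8 UMI were 11.2%, 13.04% and 14.0% in PBS and 2.60% and 11.9% in AML. The median depths behind these shares were 6879, 14971 and 8330 UMIs a cell in PBS and 2387 and 10761 UMIs in AML.

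Of the related lists, 0 of 6 tested receptors were called in cluster 4 and 1 of 2 granule proteins was called lower (Gzmb, -4.41, adjusted p = 5.57e-05 by edgeR). Of 13 enzymes, cytokines and transcription factors, 2 were called lower. Those 2 were Hdc (-2.19, adjusted p = 0.00706 by edgeR) and Gata2 (-1.83, adjusted p = 0.0301 by edgeR). Csrp3 (-3.85) and Rnase12 (-2.40), which were picked for their level in cells with members, fell too. The monocyte gene F13a1 rose (1.80, adjusted p = 0.00283 by edgeR) and was the 1 of 6 tested monocyte and macrophage genes called. Of 4 tested megakaryocyte genes 1 rose, Pf4 (3.12, adjusted p = 1.45e-05 by edgeR), and the median of the 4 was -1.08.

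Cluster 4 was itself a larger part of the AML libraries. It made up 2.88%, 2.46% and 3.41% of the PBS cells and 11.1% and 9.57% of the AML cells. Cells with 3 or more members were 4.06%, 8.70% and 6.67% of cluster 4 in PBS and 0 and 1.32% in AML. As a share of all kept cells they were 0.117%, 0.214% and 0.227% in PBS and 0 and 0.126% in AML. The mean difference of those shares, AML minus PBS, was -0.123 percentage points (exact two-sided permutation test, p = 0.3, where the smallest p that 3 against 2 libraries allows is 0.1). The part of the larger cluster in the lower member levels was not tested.

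**Figure D4:**
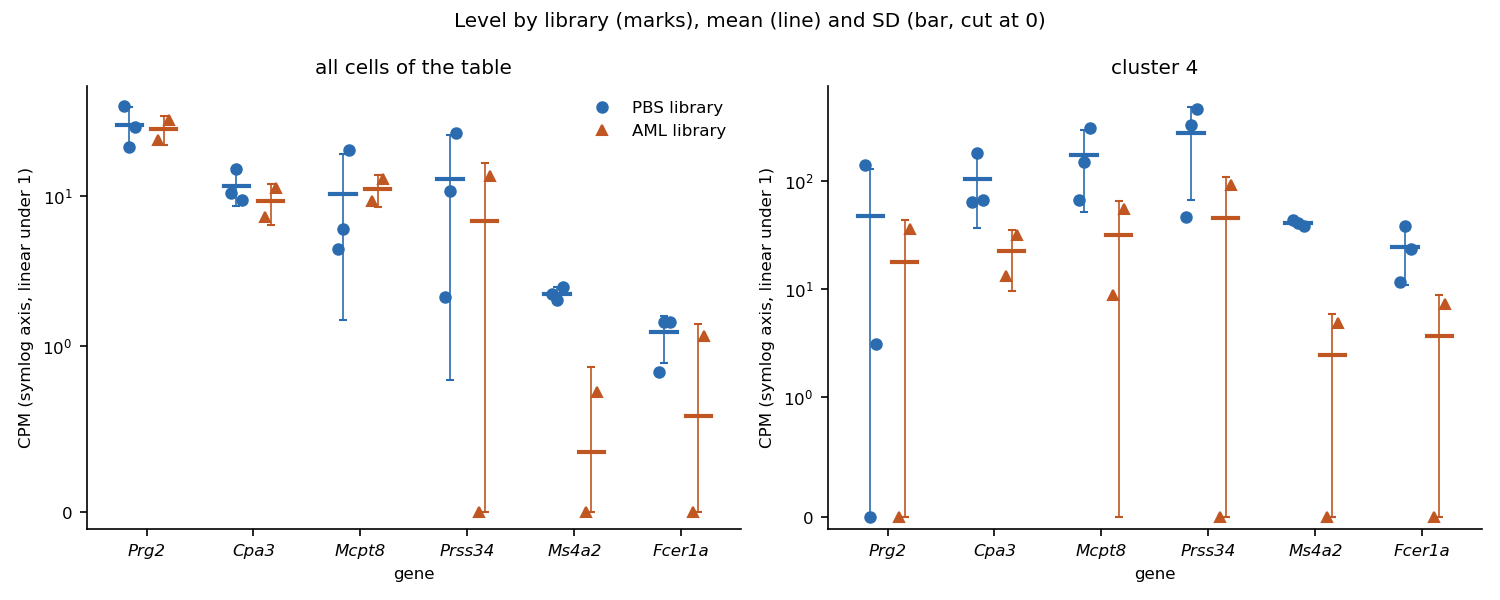
Level of 6 members in CPM (vertical axes, symmetric log, linear under 1) in all kept cells (left) and in cluster 4 (right), with 1 mark per library, a line at the group mean and a bar for the SD, cut at 0. Over all cells the groups overlap for 5 of the 6 genes, and in cluster 4 they are apart for Ms4a2, Mcpt8, Cpa3 and Fcer1a.

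The fitted values of Mcpt8 in clusters 0, 1 and 3 were above 0 and that in cluster 4 below 0, and the difference between clusters was not tested. In cluster 1 it was at 2.71, 2.19 and 6.38 CPM in PBS and 16.7 and 10.2 CPM in AML, with groups apart (1.56 ± 0.475, adjusted p = 0.309 by edgeR). In cluster 0 it was at 0.596, 0 and 1.63 CPM in PBS and 4.41 and 3.54 CPM in AML (2.01 ± 0.742, adjusted p = 0.533 by edgeR). Neither passed the test, and those fits called 0.155% and 0.0407% of all genes. Called higher in the cluster 1 fit were 3 of 7 tested monocyte and macrophage genes and 2 of 5 neutrophil genes. In cluster 0 these were 0 of 5 and 1 of 7. In cluster 2, where Mcpt8 did not pass the filter, it was at 1.52, 1.44 and 0.889 CPM in PBS and 16.5 and 2.13 CPM in AML. In MPP-4 it was at 1.47, 1.27 and 1.75 CPM in PBS and 8.56 and 3.85 CPM in AML, and it was not called. Ranges of the groups did not overlap for 26.4% of genes in cluster 1, 29.3% in cluster 0, 22.7% in cluster 2 and 25.9% in MPP-4. In cluster 3 it was at 3.07, 2.14 and 3.71 CPM in PBS and 0 and 7.37 CPM in AML, where the groups overlapped (1.07 ± 0.566, adjusted p = 1.00 by edgeR). There 0 of 2 tested members were called, where the fit called 0.156% of genes. By cells, Mcpt8 was detected in 1.37% ± 0.418 (SD, n = 3) of all kept cells in PBS and 3.09% ± 1.10 (SD, n = 2) in AML. Most of these cells held 1 UMI. In the immunoglobulin-rich cluster 6 it was in 1 of 177 cells and in cluster 8 in 1 of 113.

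The share of cells with at least 1 member was 6.94% ± 1.50 (SD, n = 3) in PBS and 6.92% ± 3.86 (SD, n = 2) in AML (exact two-sided permutation test, p = 1.0). With at least 2 members it was 0.422% ± 0.107 in PBS and 0.350% ± 0.291 in AML (exact two-sided permutation test, p = 0.8). Neither difference exceeded the spread between libraries at the depth as sequenced, where the median ran from 2393 to 9586 UMIs a cell. With each cell thinned to 2000 UMIs and shallower cells left out (6713, 934 and 4318 cells kept in PBS, 693 and 3959 in AML), at least 1 member was found in 3.22%, 3.64% and 3.03% of cells in PBS and 3.75% and 4.34% in AML, so the groups did not overlap (exact two-sided permutation test, p = 0.2). At least 2 members were then found in 0.203% ± 0.0352 of cells in PBS (SD, n = 3) and 0.0631% ± 0.0893 in AML (SD, n = 2; exact two-sided permutation test, p = 0.1, the smallest that 3 against 2 libraries can give).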

How the data were processed

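Per the file headers and labels, the authors deposited UMI counts per gene and barcode from 10x Genomics libraries, without normalization. The submitters' processing notes name Cell Ranger 7.0.1, R 4.2.2, Seurat 4.3.0 and GRCm38 (mm10). The authors' cell table gives UMI counts, the percent of mitochondrial UMIs, cell cycle phase, class, cluster and UMAP coordinates, a score without unit. The other 15 columns, among them Harmony coordinates and class scores, were not used. On its cell filters and doublet treatment nothing is given in the sources used here.

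Members and gene lists were chosen with earlier results of these data known. Kept cells are those in the table. They carry 32123508, 10403685 and 22736647 UMIs in PBS replicates 1 to 3 and 1945659 and 27603274 UMIs in AML replicates 1 and 3. Median UMIs per kept cell ranged from 2393 (AML replicate 1) to 9586 (PBS replicate 2). Pairs of libraries shared at most 0.535% of the cell barcodes of the smaller. Counts were summed per library over all cells, per class and per cluster where each library held at least 20 cells, and tested with edgeR 4.0.16 in R 4.3.3 (TMM, filterByExpr, quasi-likelihood F test, threshold 0.05 after Benjamini-Hochberg adjustment). The planned 3 against 3 libraries became 3 against 2, since AML replicate 2 has no cell in the table. CPM uses the plain total, and fold changes are AML over PBS. Shares were compared by exact permutation over libraries, and limits for a count of 0 (3 counts) cover counting error only. The labels do not say that libraries came from separate mice, so p-values measure the spread between these libraries. On simulated counts of 14079 genes for all LSK cells, 94% of 4-fold and 38.1% of 2-fold changes were recovered. These were 90.9% and 28.3% in MPP-2, 84.5% and 16.5% in MPP-3, and 93.9% and 22.2% in cluster 1. All genes were drawn with 1 common spread between libraries, so these rates need not hold for the members. Cluster 4 was not simulated.

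Genes named were the members, related genes with adjusted p under 0.05, the 3 of each related list with the highest mean CPM, and the 10 genes most like the members with at least 30 UMIs in cells of 2 or more members. Others were chosen after their values were seen. Alternatives were DESeq2 1.42.0, library size without TMM, no filter, each library left out, a replicate block, an own filter on all barcodes (at least 1000 genes, at most 10% mitochondrial UMIs), no top 5% of cells by UMIs, cells thinned to 2000 UMIs, and UMIs capped at 1 per cell and gene.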

Additional observations from a re-analysis of the deposited data

Results flagged for a closer look

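Barcodes outside the cell table, which the comparisons did not use, also held the members, and in some AML libraries at a higher level than in any PBS library. Prg2 was at 9.27 CPM in AML replicate 1 and 12.7 CPM in AML replicate 2, where the highest PBS library had 2.99 CPM. Prss34 was at 9.39 and 6.07 CPM in the same libraries (highest PBS library 2.45 CPM). Mcpt8 was at 15.7, 9.31 and 4.67 CPM in AML replicates 1, 2 and 3 (highest PBS library 3.53 CPM). Ms4a2 was at 1.78 CPM and Fcer1a at 0.951 CPM in AML replicate 1 (highest PBS libraries 1.77 and 0.680 CPM). The median outside the table was 944 UMIs a barcode in AML replicate 1 and 320 in AML replicate 2, against 3194 to 8397 in the PBS libraries. The sets compared are unlike. Outside the table lay 8088 of the 8781 barcodes of AML replicate 1 and all 17055 of AML replicate 2. In PBS replicate 1 these were 2763 of 9601. The share of all genes that were higher in this way was not counted.

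Of these barcodes, 16 held 3 or more members, 8 in AML replicate 1, 4 in AML replicate 2, 3 in PBS replicate 3 and 1 in AML replicate 3. All 16 had between 284 and 1526 UMIs, under the lowest total in the cell table (1801 UMIs). Over all its barcodes AML replicate 1 held 79 UMIs of Prss34, 150 of Mcpt8, 15 of Ms4a2 and 8 of Fcer1a, against 0, 18, 0 and 0 in its kept cells. Over all barcodes Prss34 was at 7.63, 6.07 and 11.0 CPM in AML replicates 1, 2 and 3 and at 1.77, 8.69 and 20.5 CPM in the PBS replicates, so the groups overlapped. Prg2 was at 12.0, 12.7 and 26.1 CPM in AML and 31.4, 17.1 and 22.4 CPM in PBS, again with overlap. The groups of Cpa3, Mcpt8 and Fcer1a overlapped too. Ms4a2 was lower in each AML library, at 1.45, 0.987 and 0.750 CPM, against 1.80, 1.63 and 2.29 CPM in PBS. Whether depth moves these levels was not tested.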

How the results depend on the processing

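The member calls over all LSK cells stayed at 0 under every alternative run except without the filter, which called 1. With UMIs capped at 1 only 4 of the 6 members passed the filter to be tested. Genes called there were 23, against 79 with DESeq2, 392 without the filter, 91 with the replicate block, 75 with an own filter on barcodes of 6 libraries, 8 after thinning, 65 with UMIs capped at 1, 2 over all barcodes, and 2 to 419 when libraries were left out in turn. In HSC 19 genes were called, against 0 (DESeq2), 29 (no filter), 9 (block) and 0 to 17 (libraries left out). In MPP-2 these were 5 genes against 15, 156, 30 and 0 to 84, and 2 members were called without the filter. In MPP-3 they were 5 genes against 8, 166, 47 and 2 to 69, and 17 without cluster 6, with 1 member called by DESeq2, 5 without the filter, 3 with the block, 1 without cluster 6 and 0 to 4 with libraries left out. In MPP-4 they were 4 genes against 1, 75, 34 and 0 to 34. Leaving out libraries gave 0 to 142 genes in cluster 0, 4 to 496 in cluster 1, 8 to 109 in cluster 2, 2 to 17 in cluster 3 and 18 to 101 in cluster 4. In cluster 4 the 45 genes and 4 members called became 7 genes and 1 member with DESeq2, 23 genes and 3 members with the block, 11 genes and 0 members with UMIs capped at 1, and 1 to 5 members with libraries left out. The test between classes called 111 genes and 0 members, 506 and 2 without the filter, and 29 to 189 and 0 to 1 with libraries left out. The cluster fits, those without cluster 6 and those over all barcodes were chosen after seeing the data.

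The labels do not say what replicate numbers mark, so they were not taken to pair the samples. Deviations of the same-numbered libraries correlated at r = -0.057 and -0.055 over genes, which tells little, since with 2 AML libraries their deviations mirror each other. The block lost the Cpa3 call in cluster 4 (log2 fold change -1.45, adjusted p = 0.174 by edgeR) and added Mcpt8, Prss34 and Ms4a2 in MPP-3.

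The difference in the share of cells with 1 or more members (AML minus PBS, percentage points) turned to 0.751 after thinning and 0.0688 without the top 5% of cells by UMIs, and ranged from -2.76 to 2.71 with libraries left out. With 2 or more members it was 0.0242 without those cells and -0.278 to 0.134 with libraries left out, and with 3 or more it was -0.186 to -0.0599. Of 268 repeats of member fold changes, 210 kept direction and side of the threshold, 21 passed it only in the alternative, 11 no longer passed and 26 changed sign, none of them a call in the reported fit. Over all LSK cells the log2 fold change of Prg2 became 0.35 without the top 5%, 0.17 thinned, 0.0804 capped and 0.46 without cluster 6, Fcer1a became 0.28 and Cpa3 0.0337 thinned, and Mcpt8 became -0.0544 with the block. The block also gave -0.13 for Mcpt8 in MPP-2 and 0.59 for Cpa3 in MPP-4, and DESeq2 gave 0.68 for Cpa3 in HSC. With libraries left out the ranges were -0.34 to 0.13 for Prg2, -0.29 to 1.21 for Mcpt8 and -10.86 to 0.59 for Prss34 over all LSK cells (the lowest with AML replicate 1 alone, which holds 0 Prss34). They were -0.66 to 2.47 for Cpa3 in HSC, -0.24 to 1.51 for Mcpt8 in MPP-2, -0.65 to 0.87 for Cpa3 in MPP-4, and -0.17 to 0.32 and -0.11 to 0.13 for Cpa3 in clusters 0 and 1. A lone AML library is assumed to vary like the PBS libraries. The cause of these changes was not tested. AML replicate 1, with 693 cells, limits what a count of 0 shows.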
